A study of Mus musculus with 5 samples.

Results

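The 10 genes described here are the myeloid growth factors Csf1, Il34, Csf2, Csf3 and Kitl and the receptor chains Csf1r, Csf2ra, Csf2rb, Csf3r and Kit. They were taken by symbol from the 24860 genes of the deposited tables, and all 10 were found. Single cells were profiled from tumours of SSM2, a mouse mammary tumour cell line. The tumours grew in the fourth mammary gland on the left side after injection of 100000 cells at 10 to 12 weeks of age, in mice that received either a placebo pellet or a progesterone pellet, each of 60 mg with release over 60 days, and were taken 28 to 62 days later. There were 2 placebo and 3 progesterone libraries in 2 batches named by the labels: Placebo 1 and Progesterone 1 in batch 1, and Placebo 2, Progesterone 2 and Progesterone 3 in batch 2. Neither the labels nor the names say how many mice the libraries stand for. The names given to Progesterone 2 and 3 carry a common code, followed by L in one and R in the other, and these libraries may come from 1 mouse. The p-values below therefore cover the variation among libraries only, part of which may be technical. The host strain is not given in the sources used here.

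Colony-stimulating factors and stem cell factor are secreted or membrane-bound proteins that keep blood cells alive, make them divide and steer them towards a mature type. CSF1 and IL-34 share the receptor CSF1R, on which tissue macrophages depend. GM-CSF, encoded by Csf2, binds the alpha chain CSF2RA joined to the common beta chain CSF2RB, G-CSF, encoded by Csf3, drives neutrophil production through CSF3R, and stem cell factor, encoded by Kitl, binds KIT on mast cells, progenitors and some lymphoid cells.

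Cells were clustered without the 10 genes and named from marker genes that include none of them. The libraries differed in makeup and depth. Batch 1 had medians of 8212 and 6172 UMIs (unique molecular identifiers, counted molecules) per barcode, and the batch 2 medians lay between 23702 and 25316. Placebo 1 was 87.6% T cells and had 3 epithelial cells and 5 fibroblasts among 4744 cells, although its label names a mammary tumour, and Progesterone 1 had 63 epithelial cells among 2192. Levels below are CPM, the gene's UMIs as counts per 1e6 of all UMIs of the same class and library. Pairs of libraries shared 2 to 12 cell barcodes. A class of 20 or more cells in a library was used for levels.

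**Figure D1:**
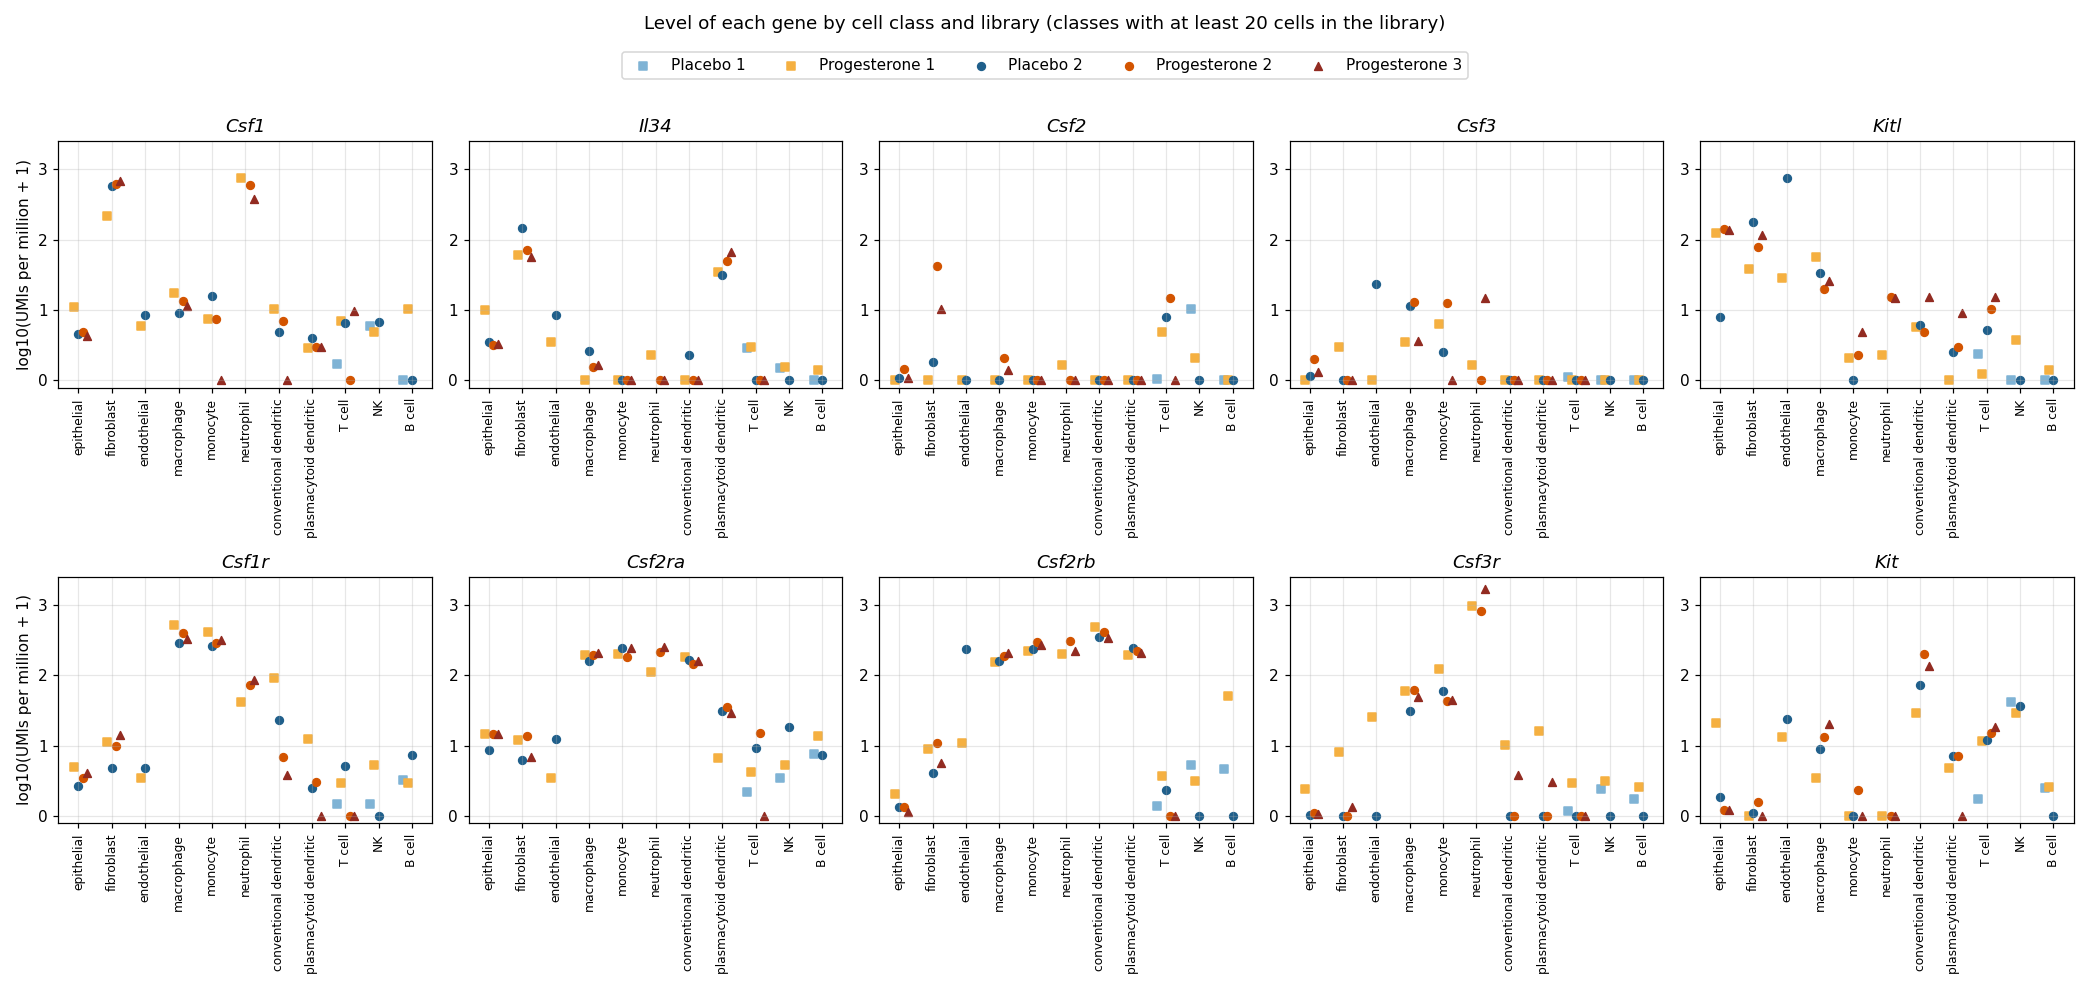
Level of each of the 10 genes, as log10 of CPM plus 1, by cell class, with 1 point for each library that had at least 20 cells of the class (blue placebo, orange to dark red progesterone; squares batch 1, circles and triangles batch 2). Csf1 and Il34 points were high in fibroblasts, Csf1r in macrophages and monocytes, Csf3r in neutrophils, and epithelial Kitl lay at 6.98 CPM in Placebo 2 against 124 to 142 in the progesterone libraries.

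Among the ligands, Csf1, the main survival factor of macrophages, came from fibroblasts and neutrophils. In fibroblasts its level was 573 CPM in Placebo 2 and 214, 609 and 691 in the progesterone libraries 1, 2 and 3. In neutrophils it was 760 in Progesterone 1, 590 in Progesterone 2 and 376 in Progesterone 3, and no placebo library had 20 neutrophils. The fibroblast and neutrophil ranges overlapped, and every other named class with 20 cells in more than 1 library stayed at or below 16.2 CPM. In numbers of molecules, fibroblasts gave 4849 of the 5546 Csf1 UMIs of Placebo 2 (87.4%) from 6.27% of its cells. In Progesterone 1 neutrophils gave 1156 of 1581 (73.1%) from 15.01% of the cells. Epithelial cells, 59.2% of the cells of Progesterone 2, held 34.7% of its Csf1 UMIs at a level of 3.93 CPM. With each cell thinned to 2000 UMIs, at least 1 Csf1 UMI was seen in 54.6% of the Placebo 2 fibroblasts, 60.7% of those of Progesterone 2 and 60.9% of those of Progesterone 3, against 1.68%, 0% and 0% of the T cells of the same libraries. Progesterone 1 fibroblasts gave 21.4%, with 22 of 50 cells too shallow to be thinned (46.0% unthinned), against 0.9501% of its T cells. The unthinned shares of the batch 2 fibroblasts were 80.6%, 74.6% and 77.3%, at median depths of 24974, 24335 and 20981 UMIs against 4859, 4229 and 4486 in those T cells.

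Il34 encodes the second CSF1R ligand. Its level in fibroblasts was 144 CPM in Placebo 2, and the progesterone libraries 1, 2 and 3 had 58.8, 69.4 and 55.9. Plasmacytoid dendritic cells, the interferon-producing dendritic type, were the next class, with 30.5 in Placebo 2 and 33.9, 48.3 and 66.4 in the progesterone libraries 1, 2 and 3. The fibroblast and plasmacytoid ranges overlapped. Epithelial cells had 2.20 to 8.90 CPM, and the macrophages of all libraries together had 26 UMIs. Of the Il34 UMIs of Placebo 2, fibroblasts gave 72.6%, whereas in Progesterone 2 and Progesterone 3 epithelial cells gave 71.5% and 63.6%. In Progesterone 1 fibroblasts gave 50.0% and epithelial cells 21.6%. Fibroblasts were 6.27% of the cells of Placebo 2, 1.35% of those of Progesterone 2 and 2.70% of those of Progesterone 3. The epithelial Il34 level was no higher in Progesterone 2 (2.20 CPM) and Progesterone 3 (2.35) than in Placebo 2 (2.52). The part of cell numbers in these UMI shares was not tested.

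Csf2 and Csf3 were rare. All kept cells held 21, 19, 23, 166 and 46 Csf2 UMIs in Placebo 1, Progesterone 1, Placebo 2, Progesterone 2 and Progesterone 3. NK cells gave 19 of the 21 in Placebo 1 and T cells 16 of the 19 in Progesterone 1, both being known GM-CSF sources. A single NK cell held 12 of those 19, and a single T cell held 10 of those 16. In batch 2 most were in fibroblasts and epithelial cells, with 5 of 23 in T cells in Placebo 2 (6.91 CPM, against 0.827 in its fibroblasts) and 14 of 166 in macrophages in Progesterone 2. Of the epithelial UMIs, 1 cell held all 11 in Placebo 2 and 1 cell held 34 of the 76 in Progesterone 2. A single macrophage held 12 of the 14. Fibroblasts had 7 Csf2 UMIs in 4 of 350 cells in Placebo 2, 70 in 6 of 71 cells in Progesterone 2 and 28 in 6 of 141 cells in Progesterone 3, and 1 cell of Progesterone 2 held 41 of the 70. Csf3 totalled 5, 18, 124, 350 and 73 UMIs in the same order of libraries as the Csf2 totals. Macrophages gave 89 of the 124 in Placebo 2 and 159 of the 350 in Progesterone 2, and epithelial cells gave 182 of the 350. The Csf3 level in macrophages was 10.6 CPM in Placebo 2, 2.49 in Progesterone 1, 12.1 in Progesterone 2 and 2.62 in Progesterone 3, so the groups overlapped.

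Kitl was measured in endothelial cells, fibroblasts, macrophages and epithelial cells. Endothelial cells had 744 CPM in Placebo 2 and 27.1 in Progesterone 1, the 2 libraries with 20 or more of them, which are of different batches. With fewer cells, the level was 147 in Placebo 1 (16 cells), 23.9 in Progesterone 2 (3 cells) and 1569 in Progesterone 3 (5 cells). The treatments thus overlapped. In fibroblasts the level was 177 in Placebo 2, 37.5 in Progesterone 1, 77.1 in Progesterone 2 and 115 in Progesterone 3. In macrophages it was 32.7 in Placebo 2, 56.1 in Progesterone 1, 19.03 in Progesterone 2 and 24.5 in Progesterone 3, against 0 to 3.85 in the monocytes of all 5 libraries. The 37 Progesterone 1 cells of the macrophage cluster led by Apoe, C1qa and Ms4a7 held 85 Kitl UMIs, of which the whole macrophage class of that library had 90. A single macrophage of that library held 53 UMIs.

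**Figure D2:**
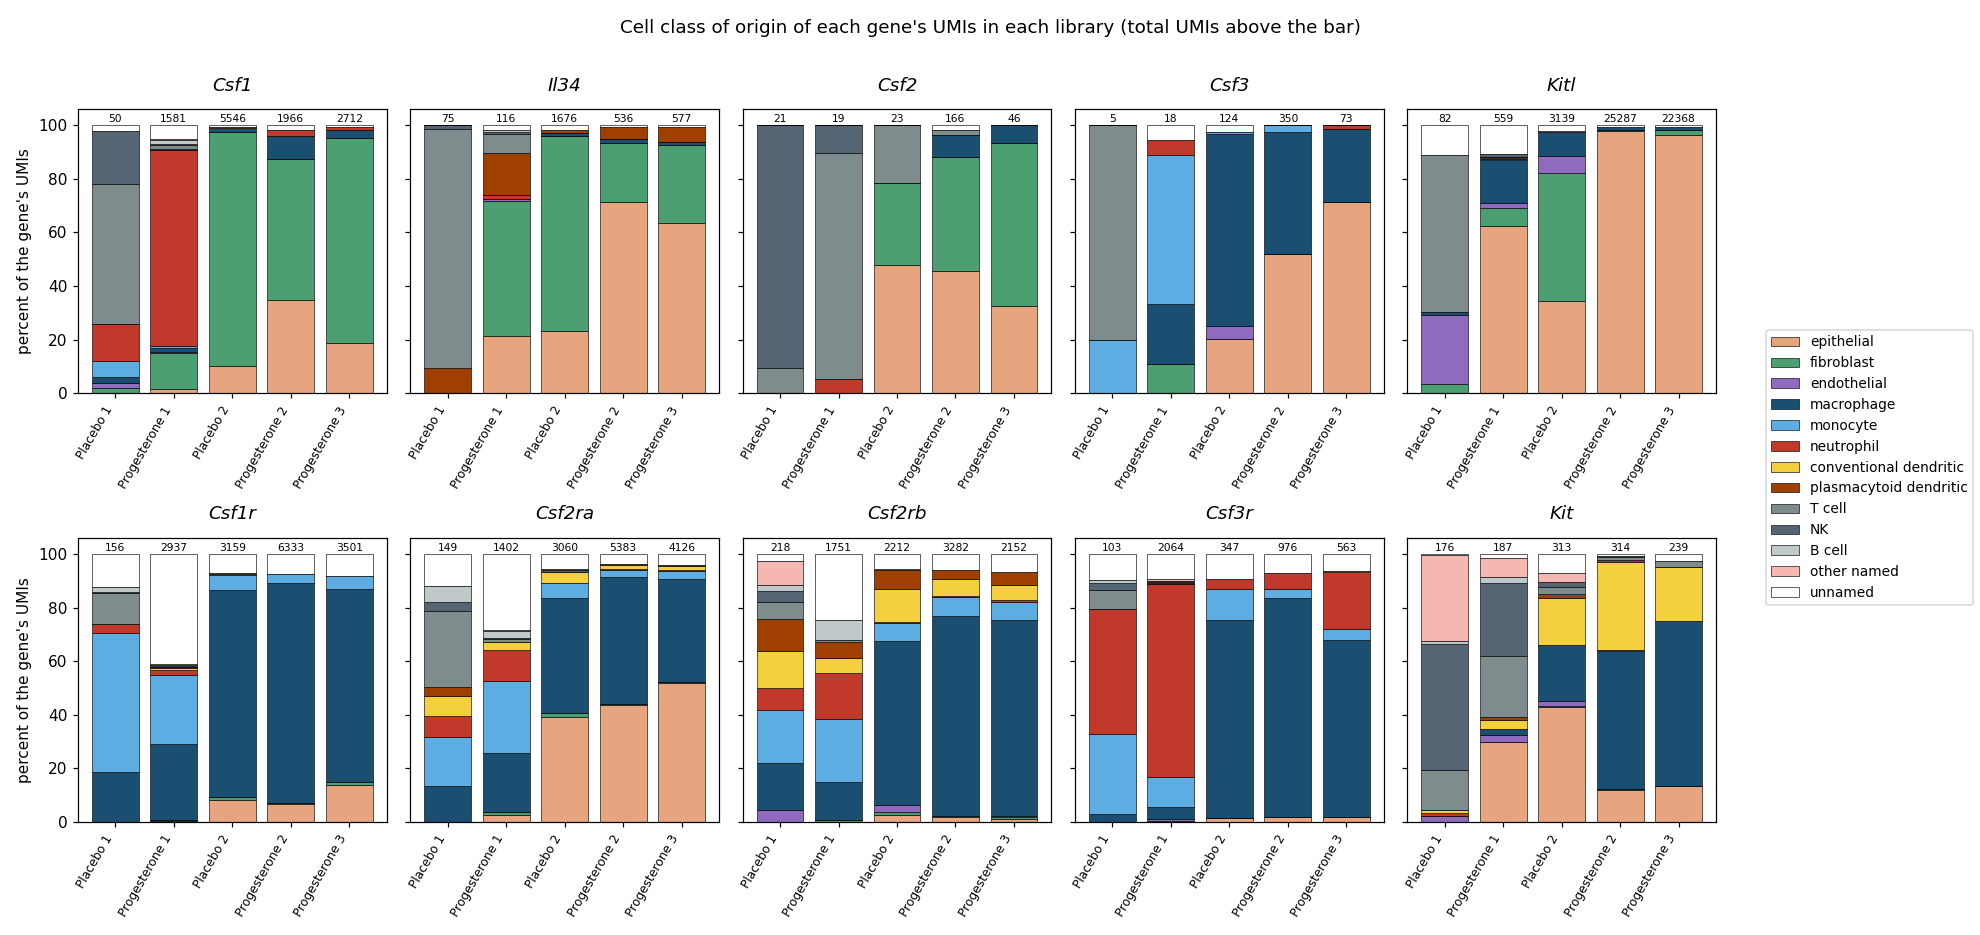
Percent of each gene's UMIs that came from each cell class, in each library, with the gene's total UMIs in kept cells above each bar. Epithelial cells held 97.8% and 96.5% of the Kitl UMIs of Progesterone 2 and Progesterone 3 against 34.5% in Placebo 2. Most Csf1 UMIs lay in fibroblasts in batch 2, in neutrophils in Progesterone 1 and in T cells in Placebo 1 (26 of 50). Neutrophils were 15.01% of the cells of Progesterone 1 and 0.0716% to 0.555% of those of the batch 2 libraries.

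Among the receptors, Csf1r was a gene of macrophages and monocytes. Its level in macrophages was 290 CPM in Placebo 2, 519 in Progesterone 1, 393 in Progesterone 2 and 331 in Progesterone 3, a mean of 384 ± 100.1 (SD, n = 4 libraries). Monocytes had 261, 406, 290 and 314 in the same libraries, with a mean of 318 ± 62.9 (SD, n = 4 libraries), and the 2 ranges overlapped. Both lay above neutrophils at 40.1 to 83.6. In cells thinned to 2000 UMIs, a Csf1r UMI was found in 40.8% of Placebo 2 macrophages and in 50.0%, 53.5% and 48.8% of those of Progesterone 1, 2 and 3, against 2.52%, 0.238%, 0% and 0% of T cells in the same libraries. The unthinned macrophage shares were 80.3%, 75.9%, 90.6% and 86.1%, at median depths of 12221 to 13620 UMIs. Of the Progesterone 1 Csf1r UMIs, 41.2% lay in unnamed cells, which in that library included 143 cells of a cluster led by Hmox1, Spp1 and Arg1 that scored as macrophage.

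The receptor chains for GM-CSF spread over more classes. The ligand-binding alpha chain Csf2ra averaged 216 ± 30.8 CPM in monocytes (SD, n = 4 libraries), 192 ± 73.8 in neutrophils (SD, n = 3), 188 ± 22.1 in macrophages (SD, n = 4) and 162 ± 13.3 in conventional dendritic cells (SD, n = 4). These neighbours in the order overlapped in range. Csf2rb, the signalling chain shared with the IL-3 and IL-5 receptors, was highest in conventional dendritic cells, with 348 CPM in Placebo 2 and 483, 412 and 336 in the progesterone libraries 1, 2 and 3. The monocyte range, 220 to 299, lay below these values, and monocytes, neutrophils, plasmacytoid dendritic cells and macrophages followed in overlapping ranges. Plasmacytoid dendritic cells had 190 to 245 CPM of Csf2rb, overlapping the monocyte range, and 5.65 to 34.2 of Csf2ra, below every monocyte value. Csf2rb (chromosome 15, 78325752 to 78353847, GRCm38) lies beside its paralog Csf2rb2 (78282507 to 78305721, opposite strand), and 3.63% of the 90-base words in the last 500 bases of Csf2rb transcripts also occur in Csf2rb2 transcripts. How the counting split reads between the 2 paralogs is not given in the sources used here, so the Csf2rb values are uncertain to that extent. Csf2rb2 itself was highest in plasmacytoid dendritic cells, at 192 to 276 CPM, and lower in conventional dendritic cells at 77.7 to 102.

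Csf3r, the G-CSF receptor, marked neutrophils, with 979 CPM in Progesterone 1, 820 in Progesterone 2 and 1673 in Progesterone 3. Monocytes at 42.0 to 124 and macrophages at 30.6 to 60.6 came next and overlapped with each other. All 3 neutrophil values were above them. Progesterone 2 and Progesterone 3 had 24 and 29 neutrophils, and macrophages gave 81.9% and 66.1% of the Csf3r UMIs of those libraries. In Progesterone 1, with 329 neutrophils, these gave 72.1%.

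Kit was sparse and split over unlike cells. The 18 mast cells, which depend on KIT signalling, had the highest levels, 727 CPM from 13 UMIs in Progesterone 1, 942 from 11 UMIs in Placebo 2 and 1479 from 56 UMIs in Placebo 1, of which 1 cell held 51. Conventional dendritic cells had 71.2 in Placebo 2, 28.2 in Progesterone 1, 203 in Progesterone 2 and 136 in Progesterone 3. This class joined 2 clusters, 1 of 74 cells with 149 Kit CPM and 1 of 62 cells with 25.8. The second held 17 of the 20 dendritic cells of Progesterone 1 and 17 of the 48 of Placebo 2. NK cells had 40.3 in Placebo 1, 27.8 in Progesterone 1 and 35.1 in Placebo 2, and monocytes had 1 Kit UMI in 304 cells. Macrophages as a class had 2.49 to 19.3 CPM. Of their 378 UMIs, 309 came from 1 cluster of 211 cells led by Mgl2, Il1r2 and class II genes, which scored 0.733 for macrophage markers and 0.601 for conventional dendritic markers.

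Progesterone and placebo were compared within each class on the UMIs summed per library, with batch in the model. Epithelial cells and fibroblasts had no usable Placebo 1 sum. Their tests set 1 placebo library against 2 progesterone libraries of batch 2, and the spread came from Progesterone 2 and Progesterone 3 alone. Among epithelial cells 49.6% of all genes passed at an adjusted p under 0.05 (24.4% higher, 25.1% lower), and 4 of the 10 genes passed, 3 higher and 1 lower, a share below that of all genes.

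Of the treatment differences that passed, the largest among the 10 genes was that of epithelial Kitl (chromosome 10, 100015630 to 100100416, plus strand). Its level was 6.98 CPM in Placebo 2, from 1084 UMIs in 2851 cells, against 142 in Progesterone 2, from 24724 UMIs in 3120 cells, and 138 in Progesterone 3, from 21587 UMIs in 3301 cells. Progesterone 1, in the other batch, had 124 from 349 UMIs in 63 cells. All 3 progesterone values were above the placebo value and lay close together. The log2 ratio was 4.18 ± 0.12 (SE; edgeR adjusted p = 4.07e-14). Without the batch term, where Progesterone 1 counts as a further treated library, it was 4.09 (edgeR adjusted p = 0.00963). In cells thinned to 2000 UMIs a Kitl UMI was seen in 1.09% of Placebo 2 epithelial cells. In those of Progesterone 1, 2 and 3 the shares were 15.8%, 22.5% and 21.8%. T cells of Placebo 2 and of Progesterone 1, 2 and 3 had 1.68%, 0%, 0% and 1.79%. The Placebo 2 T cells held 3 Kitl UMIs in all, too few to set a background level. The unthinned epithelial shares were 14.7%, 60.3%, 83.6% and 78.4%, at median depths of 44239, 27358, 49850.5 and 42128 UMIs, against 4229 to 8379 in the T cells of those libraries.

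Placebo and progesterone epithelial cells lay mostly in different clusters. Most Placebo 2 cells were in cluster 23, led by Dcpp1 and Gcg (2324 cells), or in the dividing cluster 25 (403 cells), with 4.74 and 8.05 Kitl CPM. The progesterone cells lay in clusters 16 to 19 and in the dividing cluster 24. There Progesterone 2 had 267, 145, 58.3, 161 and 167 CPM in clusters 16, 17, 18, 19 and 24, and Progesterone 3 had 227, 149, 64.7, 160 and 147. The lowest of these, cluster 18, was led by P4ha2, Ndrg1 and Bnip3, genes known to respond to low oxygen. The few Placebo 2 cells that fell in the same clusters (16, 38, 12, 19 and 3 cells) had 104.2, 48.5, 27.2, 61.5 and 82.5, above the Placebo 2 level of clusters 23 and 25 and below Progesterone 2 and Progesterone 3 in each cluster. Progesterone 1 had 63.3 in cluster 16, below the Placebo 2 value there, and 55.2, 95.2 and 385 in clusters 18, 19 and 24, from 5 to 28 cells a cluster. In cluster 23 Progesterone 2 had 4.75 from 1 UMI in 9 cells and Progesterone 3 had 46.8 from 8 UMIs in 4 cells. In cluster 15, which all 4 libraries shared, Placebo 2 had 61.98 from 36 cells, and the progesterone libraries 1, 2 and 3 had 713, 208 and 164 from 4, 10 and 7 cells. Few clusters held many cells of both treatments, so a shift of cells between clusters and a change within them cannot be told apart.

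**Figure D3:**
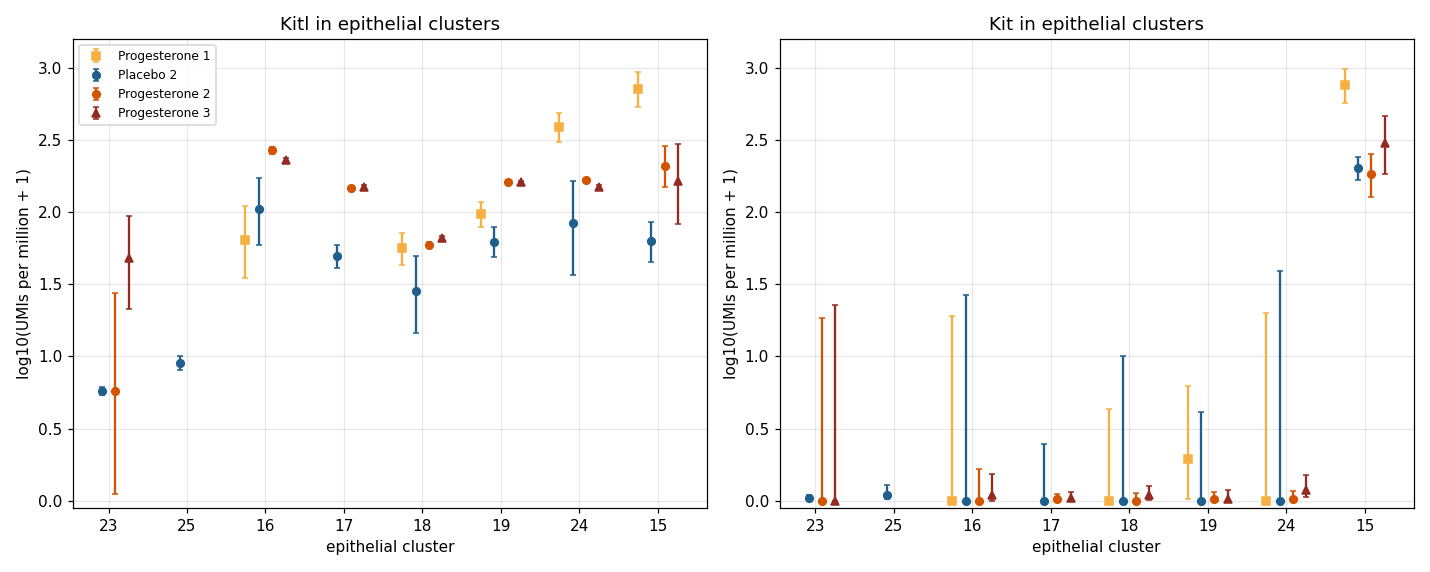
Kitl (left) and Kit (right) in each epithelial cluster and library with at least 3 cells, as log10 of CPM plus 1, with exact Poisson intervals at 95% that cover counting error only. Kitl was low in clusters 23 and 25, which hold most Placebo 2 cells, and Kit was high in cluster 15, at 181 to 754 CPM in the 4 libraries, with every other cluster below 1.

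Kitl did not pass in fibroblasts or macrophages. The fibroblast log2 ratio was -0.69 ± 0.24 (SE; edgeR adjusted p = 0.184) and passed as lower with no low count filter, after thinning and at resolution 2 (-0.74, -0.97 and -0.69). The macrophage log2 ratio was -0.09 ± 0.47 (SE; edgeR adjusted p = 0.956). It turned positive when Placebo 2, Progesterone 2 or Progesterone 3 was left out (3.44, 0.63 and 0.42), with a call in the first case. That fit left Placebo 1 as the only placebo library, and more of all genes were called in it than in the main fit. The difference between classes was itself tested. The epithelial log2 ratio exceeded that of fibroblasts by 4.93 ± 0.31 (SE; edgeR adjusted p = 6.69e-05), in a comparison where 15% of all genes passed, and that of macrophages by 4.80 ± 0.22 (SE; edgeR adjusted p = 1.88e-05), where 12.4% passed. No member passed for the difference of macrophages from fibroblasts, where 2.76% of genes did. Without the batch term the epithelial and fibroblast Kitl difference was 5.22 (edgeR adjusted p = 0.208). The summed level of the 8 epithelial markers in T cells was 16.2 and 137 CPM in batch 1 and 1182 to 1811 in batch 2, and Kitl in T cells was 0.246 to 1.34 in batch 1 and 4.14 to 14.5 in batch 2. The part of free epithelial RNA in the low Kitl levels of other classes was not tested.

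Kit (chromosome 5, 75574916 to 75656722) was the 1 member called lower in epithelial cells. Its level was 0.862 CPM in Placebo 2, 0.219 in Progesterone 2 and 0.205 in Progesterone 3, but 19.9 in Progesterone 1, and the log2 ratio was -2.16 ± 0.30 (SE; edgeR adjusted p = 1.60e-05). Most Kit molecules lay in cluster 15, 57 cells led by Wfdc18, Csn3 and Nfib, with the milk protein genes Csn3 and Ltf among them. It scored 0.935 for the epithelial markers and 1.00 for the Schwann list, of which too few genes were detected to name it by. This cluster held 126 of the 134 epithelial Kit UMIs of Placebo 2, and for the progesterone libraries 1, 2 and 3 the numbers were 55 of 56, 34 of 38 and 20 of 32. Within it the Kit level was 200 CPM in Placebo 2, 181 in Progesterone 2, 298 in Progesterone 3 and 754 in Progesterone 1, and the placebo value lay among the progesterone ones. The share of epithelial cells in the cluster was 1.26% in Placebo 2 (36 cells), 0.321% in Progesterone 2 (10 cells), 0.212% in Progesterone 3 (7 cells) and 6.35% in Progesterone 1 (4 cells). The part of that share in the Kit call was not tested. The call was lost at clustering resolutions 0.5 and 2 (log2 ratios -0.24 and -0.32, edgeR adjusted p = 0.833 and 0.767), and without the batch term the ratio was 2.37 (edgeR adjusted p = 0.668). Of the epithelial Csf3 UMIs, cluster 15 held 16 of 25 in Placebo 2, and in the progesterone libraries 2 and 3 it held 52 of 182 and 3 of 52. Epithelial Csf3 had a log2 ratio of 1.96 ± 1.11 (SE; edgeR adjusted p = 0.272) and passed as higher at resolutions 0.5 and 2 (3.02 and 3.03, edgeR adjusted p = 0.0153 and 0.0148). Epithelial Csf1, Csf2, Csf2rb and Csf3r did not pass, with log2 ratios of -0.15, 1.78, -0.67 and 1.17.

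Csf1r and Csf2ra were called higher in epithelial cells at low levels. Csf1r was 1.67 CPM in Placebo 2, 2.50 in Progesterone 2, 3.08 in Progesterone 3 and 3.92 in Progesterone 1, with a log2 ratio of 0.60 ± 0.20 (SE; edgeR adjusted p = 0.0220) that missed the threshold without the batch term (0.68, edgeR adjusted p = 0.318), with DESeq2 and after thinning. Csf2ra was 7.72 in Placebo 2, 13.5 in Progesterone 2, 13.7 in Progesterone 3 and 13.9 in Progesterone 1, with a log2 ratio of 0.67 ± 0.12 (SE; edgeR adjusted p = 0.000138) that missed the threshold without the batch term (0.65, edgeR adjusted p = 0.114). Placebo and progesterone values did not overlap for either gene. Batch 2 T cells had 0 to 4.14 CPM of Csf1r and 0 to 14 of Csf2ra, each upper value from 3 UMIs. The part of free RNA or macrophage RNA in the epithelial levels was not tested. The 8 macrophage markers summed to 27.3 CPM in epithelial cells of Placebo 2, 50.4 in Progesterone 2, 28.02 in Progesterone 3 and 63.4 in Progesterone 1. Macrophages had 0.539, 0.493, 0.629 and 0.373 Csf2ra UMIs for each Csf1r UMI in those 4 libraries, and epithelial cells had 4.63, 5.41, 4.43 and 3.55, so the epithelial ratio was above the macrophage one in each library. With thinning to 2000 UMIs, Csf2ra was seen in 1.30% to 2.83% of epithelial cells and in 0% to 5.26% of T cells.

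**Figure D4:**
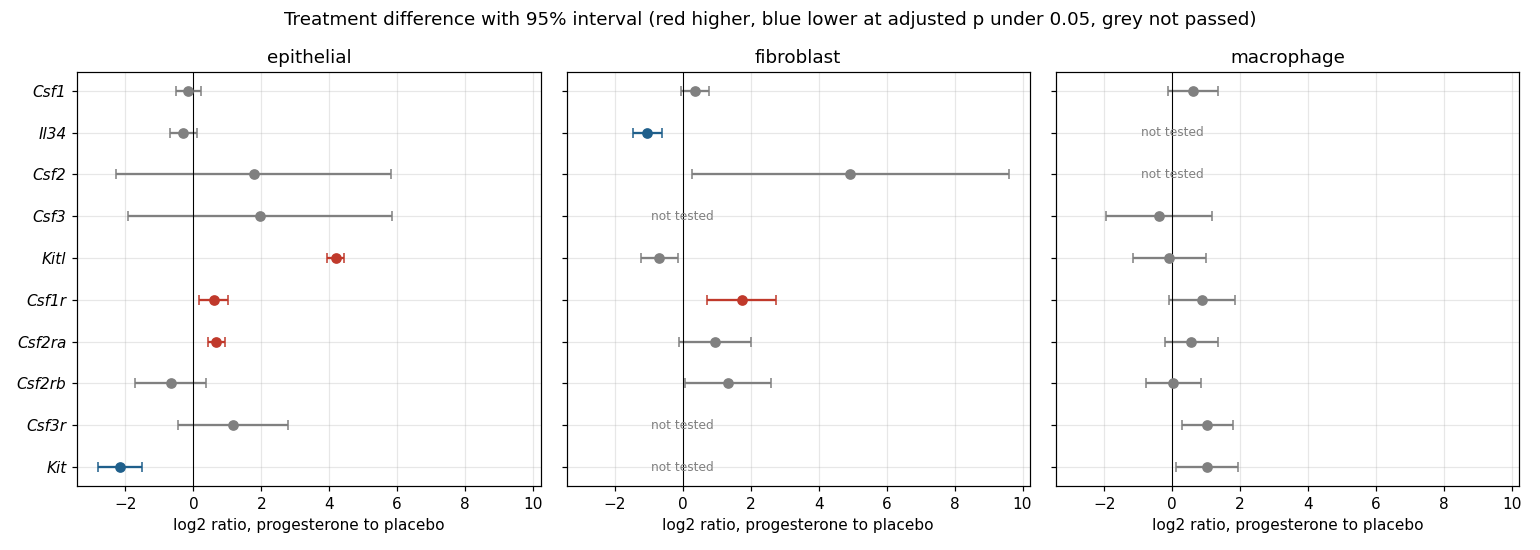
Log2 ratio of progesterone to placebo for each gene in epithelial cells, fibroblasts and macrophages, with 95% intervals from the model (red higher and blue lower at an adjusted p under 0.05, grey not passed; genes with too few UMIs are marked not tested). Epithelial Kitl at 4.18 and Kit at -2.16 and fibroblast Il34 at -1.04 were the largest differences that passed, beside fibroblast Csf1r at 1.73.

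In fibroblasts 4.22% of all genes passed (2.58% higher, 1.65% lower) and 2 of the 7 members tested passed. Il34 (chromosome 8, 110741829 to 110805924) was lower. The Placebo 2 value of 144 CPM was above the 3 progesterone values of 55.9 to 69.4, and the log2 ratio was -1.04 ± 0.20 (SE; edgeR adjusted p = 0.00614). The call was lost with DESeq2 (-1.04, adjusted p = 0.556), without the batch term (-1.11, edgeR adjusted p = 1.00) and at resolution 0.5 (-1.04, edgeR adjusted p = 0.0515), with the size near the same in all 3. Fibroblast Csf1, the partner ligand, had a log2 ratio of 0.35 ± 0.20 (SE; edgeR adjusted p = 0.464). The epithelial Il34 log2 ratio of -0.29 ± 0.18 (SE) did not pass (edgeR adjusted p = 0.199), and its difference from that of fibroblasts was 0.83 ± 0.20 (SE; edgeR adjusted p = 0.0217). That difference did not pass without the batch term (1.49, edgeR adjusted p = 0.688) and turned negative, without passing, after thinning (-0.88, edgeR adjusted p = 0.731). The other call, Csf1r, was 3.78 CPM in Placebo 2 and 8.83, 12.98 and 10.1 in Progesterone 2, 3 and 1, from 10 to 39 UMIs a library, and the placebo value was the lowest. Its log2 ratio was 1.73 ± 0.48 (SE; edgeR adjusted p = 0.04996). The macrophage markers in fibroblasts summed to 1579 CPM in Placebo 2 and to 2024, 2778 and 1592 in Progesterone 2, 3 and 1. The Csf1r call was also lost with DESeq2, without the batch term, after thinning, at resolution 0.5 and with doublets kept (1.13, edgeR adjusted p = 0.143, for the last), and the part of macrophage RNA in it was not tested. Fibroblast Csf2, with a log2 ratio of 4.93 ± 1.44 (SE; edgeR adjusted p = 0.321), passed with DESeq2 (5.06, adjusted p = 0.0033), with no low count filter, after thinning, with doublets kept and at resolution 2, and its molecules in batch 2 lay in 4 to 6 cells a library. Csf2ra (0.95) and Csf2rb (1.33) did not pass in fibroblasts.

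In macrophages 0 of 11793 genes passed with edgeR (0%) and none of the 8 members tested did. The unadjusted p was under 0.05 for 1317 genes, and DESeq2 called 12. Placebo 1 had 18 macrophages, with 165 Csf1r CPM (433 in its 10 monocytes) against 519 in Progesterone 1, and the batch 2 values were 290 in Placebo 2 against 393 and 331. Progesterone macrophages were thus higher within each batch. The Placebo 1 macrophage value rests on 29 Csf1r UMIs, and its cells had a median of 1011 UMIs against 13620 in Progesterone 1. In monocytes the batch 1 order was reversed. The Csf1r log2 ratio was 0.88 ± 0.42 (SE; edgeR adjusted p = 0.468), with a 95% interval from -0.09 to 1.84. Csf3r was 17.1 in Placebo 1 (3 UMIs) and 58.6 in Progesterone 1, and 30.6 in Placebo 2 against 60.6 and 48.8 in Progesterone 2 and 3. Its log2 ratio was 1.04 ± 0.32 (SE; edgeR adjusted p = 0.338). Csf3r passed without Placebo 1 (0.87) and without Progesterone 1 (0.86). These 2 fits are 1 contrast, Placebo 2 against Progesterone 2 and 3, since the batch term absorbs the batch 1 library left. Csf3r also passed without Placebo 2 (1.92), against Placebo 1 alone, and at resolution 2 (0.96, edgeR adjusted p = 7.31e-06). Csf1r passed without Placebo 2 (1.79) and at resolution 2 (0.44, edgeR adjusted p = 0.0335), where Csf1 (0.77) and Csf2ra (0.44) passed as well. Without Progesterone 1, Kit passed as higher (0.99) and Kitl as lower (-0.58). Over all genes 2497 of 12511 passed at resolution 2, against 0 of 11793 in the main fit. Calls over all genes also rose from 0 in the fits without Placebo 1, Progesterone 1 or Placebo 2. The remaining ratios were 0.62 for Csf1, 0.57 for Csf2ra, 0.03 for Csf2rb, -0.39 for Csf3 and 1.02 for Kit, with edgeR adjusted p from 0.417 to 0.980. With 1 library left out these ran from 0.55 to 1.65 for Csf1, 0.38 to 0.91 for Csf2ra and 0.80 to 6.75 for Kit, each highest without Placebo 2. In that fit the 1 placebo library left had no Kit UMI in its macrophages, so the upper Kit value depends on the prior count. With all clusters that scored as macrophage or monocyte pooled, 74 cells in Placebo 1 and 524 to 1186 in the other libraries, none of the 8 passed and the Csf1r ratio was 0.50 (edgeR adjusted p = 0.356). The epithelial Kit ratio lay 3.12 ± 0.44 (SE) below the macrophage one (edgeR adjusted p = 0.0036), which was lost at resolutions 0.5 and 2 (-1.52 and -0.076, edgeR adjusted p = 0.416 and 0.977). It turned positive, without passing, when the batch term was dropped (1.01, edgeR adjusted p = 0.977) and after thinning (1.77, edgeR adjusted p = 0.776). Most macrophage Kit UMIs lay in the 1 cluster led by Mgl2, Il1r2 and class II genes.

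Among the other classes, no member passed in monocytes (4 tested, with 0.0879% of all genes called, 0.0293% higher and 0.0586% lower), conventional dendritic cells (3 tested, 0%), plasmacytoid dendritic cells (3 tested, 0.442%, of which 0.11% higher and 0.331% lower) or T cells (Kit alone tested, 0.0129%). For conventional dendritic cells the edgeR count at an unadjusted p under 0.05 was 237 genes and DESeq2 called 7. Dendritic Kit was 27.8 in Placebo 1 (2 UMIs) and 28.2 in Progesterone 1, and 71.2 in Placebo 2 against 203 and 136 in batch 2. Its log2 ratio was 1.07 ± 0.49 (SE; edgeR adjusted p = 0.997). The part of the mix of the 2 dendritic clusters in that ratio was not tested. Dendritic Kit passed without Placebo 1 (1.28) and without Progesterone 1 (1.27), which are 1 contrast, Placebo 2 against Progesterone 2 and 3. Calls over all genes also rose there, from 0 in the main fit. In T cells the Kit ratio was 2.32 ± 0.82 (SE; edgeR adjusted p = 0.416). It passed without Placebo 2 (3.69), as did Csf2, which was not tested with all 5 libraries. That fit left Placebo 1 as the only placebo library, and more of all genes were called in it than in the main fit. In B cells 0.454% of genes passed (0.401% higher, 0.0534% lower), and Csf2rb, the 1 member tested, was called higher at 3.91 ± 0.79 (SE; edgeR adjusted p = 0.0403). That call rests on Progesterone 1, with 127 UMIs in 37 of 214 B cells, against 5 UMIs in 160 cells of Placebo 1, 0 in 57 of Placebo 2 and 1 in 14 of Progesterone 2. No member was called in B cells after thinning or with DESeq2. NK and endothelial sums left no residual degree of freedom, and neutrophils had no placebo library, so these were not tested.

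Related genes were followed in 3 lists. The list of related ligands and receptors, relatives of these cytokine systems such as Flt3l, Thpo and Epor, had 14 genes. In epithelial cells 12 were tested, 0 were higher, 7 were lower and the median log2 ratio was -0.89, against 0.01 over all genes tested. The 5 with the lowest adjusted p were Sdc1, a proteoglycan that can bind IL-34 (-1.19 ± 0.10, SE), Flt3l, the FLT3 ligand (-1.12 ± 0.15), Thpo, thrombopoietin (-1.998 ± 0.29), Epor, the erythropoietin receptor (-1.20 ± 0.24), and Tnfsf11, encoding RANKL (-2.27 ± 0.68), with edgeR adjusted p from 3.77e-08 to 0.0105. Among the 22 signal transducers tested in epithelial cells 5 were higher and 6 lower, with a median of 0.04. The 5 with the lowest adjusted p were Cish, a STAT5-induced inhibitor (-1.31 ± 0.10), the kinase genes Jak2 (-1.01 ± 0.11) and Lyn (-0.80 ± 0.11), Socs3, a cytokine signalling inhibitor (-0.74 ± 0.10), and Pik3r1, a PI3-kinase subunit (0.93 ± 0.10), with edgeR adjusted p from 2.32e-08 to 1.08e-05. Of the 10 lineage transcription factors tested there, Mitf, a factor of mast cells, melanocytes and osteoclasts, was higher (1.45 ± 0.17, SE) and Irf8 (-1.42 ± 0.20), Maf (-1.53 ± 0.47) and Cebpa (-0.29 ± 0.11) were lower. Of all genes tested in epithelial cells 49.6% were called, and nothing particular to a list is read from these counts.

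In fibroblasts Sdc1 was lower (-0.70 ± 0.19, SE; edgeR adjusted p = 0.0458, 1 of 4 tested). Socs3 was higher (0.79 ± 0.19, SE; edgeR adjusted p = 0.0223) and so was Tyrobp, a myeloid adaptor (1.93 ± 0.46, SE; edgeR adjusted p = 0.0275), the 2 calls among 19 transducers. Of all genes tested in fibroblasts 2.58% were higher and 1.65% lower. The macrophage markers in the same fibroblast sums were higher in Progesterone 2 (2024 CPM) and Progesterone 3 (2778) than in Placebo 2 (1579), and their part in the Tyrobp call was not tested. In B cells Il5ra, the IL-5 receptor chain that pairs with CSF2RB, was higher (5.16 ± 0.90, SE). The adaptor Gab2 was higher too (2.33 ± 0.41, SE). Both had an edgeR adjusted p of 0.0203, where 0.401% of all genes tested were higher. Progesterone 1 gave most of the progesterone counts, with 2585500 UMIs in 214 B cells against 75581 in 14 of Progesterone 2. No listed gene passed in macrophages, monocytes, T cells or either kind of dendritic cell.

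The genes whose levels followed each member most closely were found by Pearson r of log2 levels over 41 class and library sums, which share libraries and depth, among 14845 genes. Csf1r was nearest to Tlr2 (0.951), Adgre1 (0.948) and Lyz2 (0.933), Csf3r to Clec4d (0.939), Igsf6 (0.929) and Clec5a (0.917), and Csf2rb to Csf2rb2 (0.948), Alox5ap (0.927) and Skap2 (0.898). Csf2ra lay near Cd300c2 (0.897) and Ftl1 (0.871). The ligand Csf1 was nearest to Gpc3 (0.889), Pde1a (0.887) and Fap (0.853), and Il34 to Egfr (0.8925), Rbp4 (0.870) and Vegfd (0.862). Kitl lay near Fblim1 (0.812), Ddah2 (0.808) and Atp8b1 (0.804). Kit reached only 0.763 with Ccl5, 0.750 with Chn2 and 0.747 with Itgae, Csf2 0.717 with Qprt, 0.709 with Lancl3 and 0.703 with Prrt2, and Csf3 0.682 with Apol7d, 0.652 with Arl11 and 0.646 with Calml4.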

How the data were processed

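The deposited matrices hold UMI counts for each barcode, unnormalized, that the authors made with Cell Ranger (version 8.0.1 per the file headers, 7.0.0 with the mm10 build per the submitters' processing notes). Total counts per library were 23409215 to 204786073. Cells with at least 250 genes were kept and doublets were removed (1.79% to 4.68% of barcodes). Cells were clustered with scanpy 1.11.5 (2000 variable genes without the 10 members, 30 components, Leiden resolution 1, no batch integration) and named from markers. The members, markers and lists were chosen with earlier results of these data known, and all 10 members and at most 5 genes per list and class were named. For each class the counts of a library were added up, and the sums were compared with edgeR 4.0.16 (R 4.3.3, quasi-likelihood, TMM, filterByExpr, batch as a covariate) over libraries with at least 10 cells, with Benjamini-Hochberg adjustment over all genes and a threshold of 0.05. DESeq2 1.42.0 was an alternative. The batch term served as the replicate block, since the labels name the batches. On simulated counts with 200 genes changed by 2 on the log2 scale, the test recovered 80.0% in epithelial cells (16382 genes), 79.5% in fibroblasts (11649) and 85.5% in macrophages (11793). At a log2 change of 1 it recovered 0%, 3.5% and 10.5%. The test of the difference between epithelial cells and fibroblasts recovered 35% of 200 genes raised by 2 in epithelial cells alone (13081 genes). The simulated counts had 1 fixed dispersion of 0.05 for all genes and no batch effect. Each unchanged gene had the same expected share in every library of a class. Dispersions of the real sums were not used, and real epithelial ratios of 0.60 and 0.67 passed. The recovered shares therefore do not give the power of the tests on the real sums. Intervals on single libraries are exact, at 95%, and cover counting error only. Coordinates are from GENCODE M21 on GRCm38, start from 1, and are those of whole genes. Some results on listed and neighbouring genes are not reported here.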

Additional observations from a re-analysis of the deposited data

Results flagged for a closer look

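The treatment difference of 3 genes differed between cell classes by the test of the difference itself. Kitl rose in epithelial cells by 4.93 more on the log2 scale than in fibroblasts and by 4.80 more than in macrophages. Il34 differed by 0.83 between epithelial cells and fibroblasts, where it was lower under progesterone, but by 1.49 without the batch term and by -0.88 after thinning, and passed in neither. Kit differed by -3.12 between epithelial cells and macrophages, and 1 cluster of 57 cells held most epithelial Kit UMIs (20 of 32 in Progesterone 3). Most macrophage Kit UMIs, 309, lay in 1 cluster of 211 cells led by Mgl2, Il1r2 and class II genes. At resolution 2 a cluster led by such genes was left unnamed, with scores of 0.636 for conventional dendritic and 0.626 for macrophage markers. That Kit difference did not pass at resolutions 0.5 and 2, and it turned positive, without passing, when the batch term was dropped (1.01) and after thinning (1.77).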

How the results depend on the processing

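Epithelial Kitl was called under all 8 alternatives tried (4.09 to 4.53). None of these could leave out Placebo 2, the 1 placebo library of the main epithelial fit. Leaving out Progesterone 1 repeats the main contrast, since the batch term absorbs that library. The number of members called moved elsewhere. Without the replicate block it was 1 in epithelial cells and 0 in fibroblasts, and 0 and 1 members passed for the difference of epithelial cells from fibroblasts and macrophages. After thinning to the lowest total it was 2 in epithelial cells and 0 in B cells, and 1 and 1 for those differences. DESeq2 called 1 in fibroblasts and 0 in B cells, and 4 were called in fibroblasts with no low count filter. Resolution 0.5 gave 0 in fibroblasts and 1 for the epithelial and macrophage difference, and resolution 2 gave 4 in fibroblasts, 4 in macrophages, 1 for that difference and 1 for the macrophage and fibroblast difference. Leaving out 1 library gave 0 to 3 in macrophages, 0 to 1 in conventional dendritic cells and 0 to 2 in T cells. The fits with the most members called also called more of all genes than the main fit did. Over all genes DESeq2 called 4426 against 8120 in epithelial cells and 84 against 492 in fibroblasts. Without the replicate block 782 were called in epithelial cells and 0 in fibroblasts, and after thinning 3391 of 11159 in epithelial cells. Fibroblasts had 794 of 17100 with no low count filter, 143 of 11930 at resolution 0.5 and 836 of 11407 at resolution 2. Macrophages had 2497 of 12511 at resolution 2, against 0 of 11793 in the main fit. B cells had 10 of 1556 after thinning and 14 of 7490 with DESeq2. Without the replicate block the ratio changed sign for epithelial Csf1 (0.26), Kit (2.37) and Il34 (0.35), fibroblast Csf1 (-0.032), macrophage Kitl (0.22) and the Kit difference between epithelial cells and macrophages (1.01). Macrophage Kitl was 0.43 with DESeq2, 0.49 with Progesterone 2 and 3 summed and -0.58 to 3.44 with 1 library left out. Macrophage Csf3 ran from -1.46 to 6.75 (the last against Placebo 1 alone, with 0 UMIs) and Csf2rb from -0.36 to 0.31 with 1 library left out. Csf2rb was -0.035 with the 2 libraries summed and -0.26 after thinning, Csf2ra was -0.069 after thinning, and macrophage Kit was -0.19 at resolution 2. Dendritic Kit ran from -0.055 to 1.28 with 1 library left out. After thinning, the Il34 difference between epithelial cells and fibroblasts was -0.88 and the Kit difference between epithelial cells and macrophages was 1.77. The causes were not tested. The mean share of macrophages with a Csf1r UMI was 48.3% at 2000 UMIs and 71.7% at 4000. For epithelial cells and fibroblasts, Progesterone 2 and 3 summed and leaving out any library but Progesterone 1 left no residual degrees of freedom and were not run. The pooled macrophage class was chosen after seeing the data.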
